A study of Mus musculus with 6 samples.

Results

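Intermediate filament and lamin genes were examined in HL-1, a mouse cell line of atrial heart muscle origin. The 10 genes were Des, Vim, Nes, Synm, Nefl, Nefm, Krt8, Krt18, Lmna and Lmnb1, taken by gene symbol from a table of 22913 genes with read counts. All 10 had a row, and 7 had enough reads to enter the fit across all genes. The tested libraries came from cells transfected with a plasmid for overexpression of human HSPA1A, the stress-inducible HSP70 chaperone, and the others from cells transfected with a control plasmid (Ctrl). Each group held 3 libraries of polyadenylated RNA, all from the same line, all transfected with a lipid reagent and harvested after 48 h. The genes were selected on their levels in these libraries and on each HSPA1A library against the 3 Ctrl libraries, so their values in that contrast are given as a description, and the calls that the fits across all genes gave them are counted beside the share of all genes without being read as evidence. The labels do not say that the replicates were separate cultures, so errors and p-values cover only the variation among these 6 libraries, and that may be technical.

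Intermediate filaments are rope-like polymers that give cells mechanical strength. Desmin is the main filament of mature heart muscle, where it ties the contractile units to each other, to the nucleus and to the membrane, while vimentin is typical of mesenchymal and cultured cells. Nestin and synemin join desmin or vimentin filaments, neurofilament light and medium chains form the filaments of neurons, and keratins pair a type I with a type II chain in epithelia. Lamins A and B1 form the meshwork beneath the inner nuclear membrane.

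Read counts summed to between 23849656 and 26897086 per library. Mouse Hspa1a had 17, 20 and 11 reads in HSPA1A replicates 1 to 3, against 10, 17 and 11 reads in Ctrl replicates 1 to 3. Its near copy Hspa1b had 56, 94 and 74 reads in HSPA1A replicates, against 75, 76 and 66 reads in Ctrl replicates. The plasmid carried the human gene, and how far its reads align to the mouse gene was not tested, so these counts do not check the labels. HSPA1A replicate 2 stood apart from the other HSPA1A libraries: on the first principal component of log2 CPM (38.0% of the variance) it lay at -12.8, against 12.8 and 14.9 for HSPA1A replicates 1 and 3 and -6.81 to -3.46 for the Ctrl libraries. Of the cardiac muscle markers, Tnnt2, Gata4 and Nkx2-5 averaged 29.8, 8.28 and 2.19 FPKM (fragments scaled by gene length and library size), whereas Actc1, Actn2, Ryr2 and Tnni3 averaged 0.0117, 0.00167, 0.00333 and 0.0467 FPKM. Thus several markers that define heart muscle were nearly absent from cells labelled as a heart muscle line. Of the fibroblast markers, Col3a1, Col1a2, Col1a1 and Dcn averaged 76.2, 51.8, 11.2 and 8.01 FPKM, whereas Pdgfra, Postn, Thy1 and Lum averaged 0.415, 0.152, 0.00333 and 0.00333 FPKM. The endothelial markers Pecam1 and Kdr averaged 0.0150 and 0.0183 FPKM. Of the macrophage and leukocyte markers, Ptprc, Csf1r and Lyz2 averaged 0.00333, 0.0183 and 0.0483 FPKM, whereas Cd14 and Cd68 averaged 9.44 and 3.42 FPKM.

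RefSeq (GRCm38.p6) gave promoter windows, 250 bases before to 50 after a transcription start, for 7 of the 10 genes: Des, Vim, Nes, Synm, Krt8, Krt18 and Lmna. The windows of Des and Nes are printed because these genes were below every Ctrl library in all 3 HSPA1A libraries, and that of Vim because it was the most abundant. The order is Des at chr1:75360042-75360341, Nes at chr3:87970843-87971142 and Vim at chr2:13574061-13574360, all on the plus strand. Capitals mark matches on either strand to the TATA box motif TATAAA, to the CCAAT box, to the GC box motif GGGCGG, or to the usual consensus of the kappaB site. The CArG box was searched too, by its usual consensus, and was in none of these windows.
Des: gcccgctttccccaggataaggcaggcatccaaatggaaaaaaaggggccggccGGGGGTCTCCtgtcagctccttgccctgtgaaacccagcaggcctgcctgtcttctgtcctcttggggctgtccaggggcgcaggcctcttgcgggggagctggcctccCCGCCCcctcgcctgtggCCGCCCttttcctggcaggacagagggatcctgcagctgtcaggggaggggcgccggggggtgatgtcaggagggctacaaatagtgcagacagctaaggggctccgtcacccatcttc
Nes: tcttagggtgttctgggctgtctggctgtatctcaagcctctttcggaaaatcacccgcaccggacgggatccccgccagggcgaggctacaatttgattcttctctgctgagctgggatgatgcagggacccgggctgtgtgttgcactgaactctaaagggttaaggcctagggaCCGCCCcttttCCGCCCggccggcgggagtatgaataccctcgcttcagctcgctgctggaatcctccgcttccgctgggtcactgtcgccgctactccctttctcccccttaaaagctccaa
Vim: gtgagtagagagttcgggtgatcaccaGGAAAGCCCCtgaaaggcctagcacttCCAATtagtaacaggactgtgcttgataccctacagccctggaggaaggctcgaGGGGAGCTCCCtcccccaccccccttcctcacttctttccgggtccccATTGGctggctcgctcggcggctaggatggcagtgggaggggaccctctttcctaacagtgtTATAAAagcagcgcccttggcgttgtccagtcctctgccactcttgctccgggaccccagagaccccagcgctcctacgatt
The Des window held GC boxes starting at -87 and -69 from the start and a kappaB match at -196. The Nes window held GC boxes at -73 and -62 and no other match. The Vim window held the TATA box at -32, CCAAT boxes at -196 and -94, and kappaB matches at -223, -142 and -141, of which the matches at -142 and -141 overlap. Of 32851 windows of the same length, 35.7% held a GC box, 13.6% a TATA box, 37.4% a CCAAT box, 8.46% a kappaB match and 1.63% a CArG box. The heat shock motif GAANNTTC was searched too and was in none of the 8 windows of these genes, against 7.86% of all windows. These matches are descriptions of the letters and not of binding.

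The levels of the 10 genes spanned from vimentin, among the most abundant transcripts, to genes with a few reads. Vim averaged 2200.9 FPKM over the 6 libraries (range 1887.0 to 2580.6), which placed it at rank 19 of 16276 protein-coding genes, and made up 78.3% of the summed FPKM of the 10 genes. Lmna followed at 301 FPKM (290.5 to 309.9) and Des at 188 FPKM (166.6 to 205.9). Nefl, at 52.3 FPKM (34.9 to 63.0), and Nes, at 44.9 FPKM (39.8 to 49.2), overlapped in range over the 6 libraries. Nefl was below Nes in HSPA1A replicates 1 and 3 and above it in HSPA1A replicate 2, and it was above Nes in every Ctrl library, at 56.16 to 61.94 FPKM beside 48.28 to 49.17 FPKM for Nes. Lmnb1 averaged 13.7 FPKM (12.7 to 15.02) and Nefm 7.75 FPKM (5.70 to 9.09), and each of the other steps down to Nefm was without overlap. Krt8, Krt18 and Synm were at 0.0400, 0.0217 and 0.00833 FPKM, with overlapping ranges. The cells thus held vimentin RNA at 10.6, 14.4 and 12.0 times the desmin FPKM in HSPA1A replicates 1 to 3, against 12.0, 10.4 and 11.1 times in Ctrl replicates 1 to 3. The order was the same over the Ctrl libraries alone and per kilobase of annotated exons. There Vim stood at 1096.4, Lmna at 186 and Des at 164 CPM (counts per library scaled to a common total) per kilobase. Vim thus exceeded Des by a smaller multiple per kilobase of annotated exons than in FPKM.

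**Figure D1:**
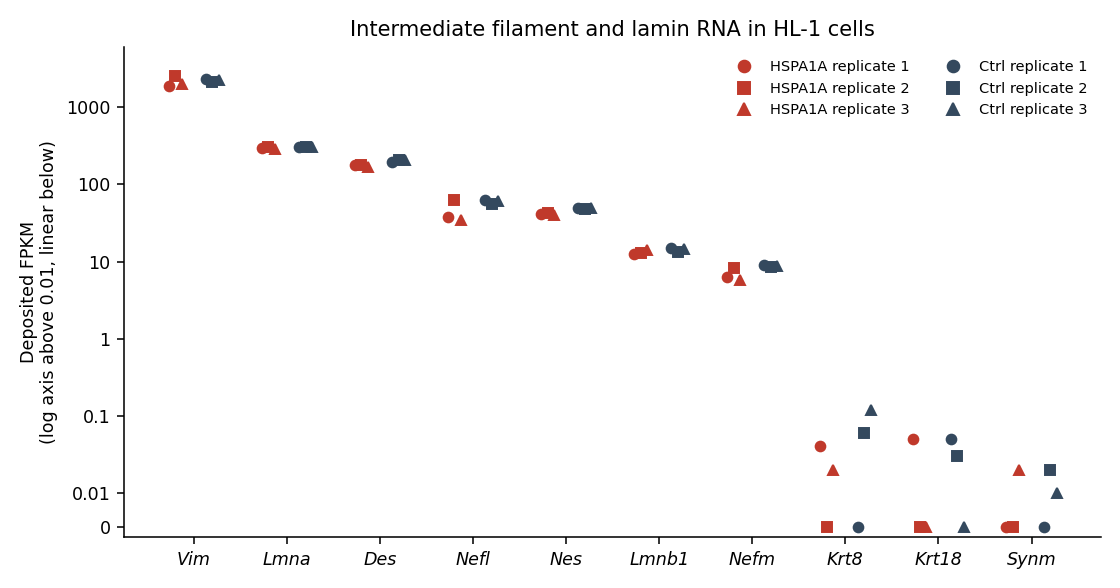
Deposited FPKM of the 10 genes in each library, ordered by mean level, on an axis that is logarithmic above 0.01 and linear below it. HSPA1A libraries are red and left of the dark Ctrl libraries of the same gene. Vim lies between 1887.0 and 2580.6 FPKM, and Krt8, Krt18 and Synm lie at or below 0.12 FPKM.

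Between HSPA1A and Ctrl cells, the desmin and nestin genes were lower in all 3 HSPA1A libraries, at 0.905 and 0.876 times the Ctrl level. Both neurofilament genes were below every Ctrl library in CPM in HSPA1A replicates 1 and 3. In HSPA1A replicate 2, Nefl was above every Ctrl library, while Nefm was below the mean Ctrl level but within the Ctrl range. In CPM, lamin A stayed within the spread of the libraries. In the fit of counts scaled by TMM (a library scaling that is robust to a few abundant genes), the median log2 fold change over the 7 fitted genes was -0.14, with 6 of 7 values negative, beside a median of 0.0029 over all 12827 genes tested. By edgeR's quasi-likelihood test at an adjusted p under 0.05, 0 of the 7 were called, and 0 by DESeq2 or limma-voom, where 0.179%, 0.499% and 0.164% of all tested genes were called by edgeR, DESeq2 and limma-voom. When genes with few reads were kept in the fit, 2 of the 10 were called by edgeR, Nefl and Nefm, both lower, beside 0.895% of all genes. At an unadjusted p under 0.05 there were 3 of the 7 (Des, Nes and Nefm), against 8.59% of all tested genes. The groups did not overlap for 2 of the 7, both lower in HSPA1A cells, against 14.5% of all tested genes in either direction and 7.17% lower. Since the genes were chosen with this contrast known, nothing is read from these shares. In bulk RNA, fewer cells holding a transcript and less of it per cell cannot be told apart.

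Des (ENSMUSG00000026208.9, chromosome 1, 75360329 to 75368579, plus strand of GRCm38) encodes desmin. It stood at 605, 579 and 565 CPM in HSPA1A replicates 1 to 3, against 625, 653 and 655 CPM in Ctrl replicates 1 to 3. The highest HSPA1A library was below the lowest Ctrl library. The means were 583 ± 20 CPM in HSPA1A and 645 ± 17 CPM in Ctrl libraries (SD, n = 3 each), with a log2 fold change of -0.14 ± 0.052 (SE; 95% interval -0.26 to -0.03). Without HSPA1A replicate 2 the value was again -0.14. The annotation places an antisense transcript, Gm15179, over 220 exonic bases of Des on the other strand, and it was not analysed here. The summed CPM of the 10 listed cardiac muscle markers was 72.0, 97.9 and 72.9 in HSPA1A replicates 1 to 3, against 83.6, 74.6 and 76.1 in Ctrl replicates 1 to 3, and that of 5 smooth muscle markers 118, 167 and 114 in HSPA1A libraries, against 152, 139 and 139 in Ctrl libraries. Both sums were highest in HSPA1A replicate 2, which was not where Des was highest. Tnnt2 and Gata4 made up most of the first sum, and Smtn and Acta2 most of the second. Nkx2-5 and Myl4 were not highest in HSPA1A replicate 2. Actc1, Actn2, Ryr2, Myh11 and Cnn1 were at or near 0, and Tagln averaged 0.658 FPKM. The part of these markers in the Des values was not tested.

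Nes (ENSMUSG00000004891.14, chromosome 3, 87971078 to 87980451, plus strand) encodes nestin, a filament subunit of progenitor and regenerating muscle cells. It stood at 281, 277 and 273 CPM in HSPA1A replicates 1 to 3, against 321, 310.1 and 318 CPM in Ctrl replicates 1 to 3. The 3 HSPA1A libraries lay close together and all below the Ctrl libraries. The log2 fold change was -0.19 ± 0.048 (SE; 95% interval -0.30 to -0.09), and the variation within each group was small, with a coefficient of variation of 1.41% in HSPA1A and 1.74% in Ctrl libraries. Counting alone would give 1.20% and 1.10%. Without HSPA1A replicate 2 the value was -0.19 as well. On the log2 scale Nes lay 0.17, 0.19 and 0.21 below the mean Ctrl level in HSPA1A replicates 1 to 3, so replicate 2 was not apart here.

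Vim (ENSMUSG00000026728.7, chromosome 2, 13573927 to 13582826, plus strand) encodes vimentin, the partner with which nestin assembles. It stood at 4620.5, 6032.5 and 4909.6 CPM in HSPA1A replicates 1 to 3, against 5436.1, 4945.1 and 5257.7 CPM in Ctrl replicates 1 to 3. HSPA1A replicate 2 was above every Ctrl library, and HSPA1A replicates 1 and 3 were below every one. The group means, 5188 ± 746 CPM in HSPA1A and 5213 ± 249 CPM in Ctrl libraries (SD, n = 3 each), gave a log2 fold change of -0.0070 ± 0.092 (SE; 95% interval -0.21 to 0.20). Without HSPA1A replicate 2 it was -0.13, and without HSPA1A replicate 1 it was 0.070, so its sign rested on single libraries. The summed CPM of 8 listed fibroblast markers was 787, 928 and 790.0 in HSPA1A replicates 1 to 3 (887, 851 and 856 in Ctrl). This sum was again highest in HSPA1A replicate 2 and lowest in replicates 1 and 3, with Thy1 and Lum near 0. Its largest part was Col3a1, at 414, 533 and 413 CPM in HSPA1A libraries, against 472, 455 and 455 CPM in Ctrl. Dcn stood at 16.5, 15.4 and 21.4 CPM in HSPA1A libraries, lowest in replicate 2, against 18.9, 19.3 and 16.7 CPM in Ctrl. Col1a1 and Col1a2 were highest in Ctrl replicate 1. The part of these markers in the Vim values was not tested. Vim took 0.454%, 0.607% and 0.477% of all counts in HSPA1A replicates 1 to 3, against 0.547%, 0.502% and 0.533% in Ctrl replicates 1 to 3. The ratio of Nes to Vim FPKM was 0.0218, 0.0164 and 0.0199 in the HSPA1A libraries and 0.0211, 0.0224 and 0.0216 in the Ctrl libraries, lowest in HSPA1A replicate 2.

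**Figure D2:**
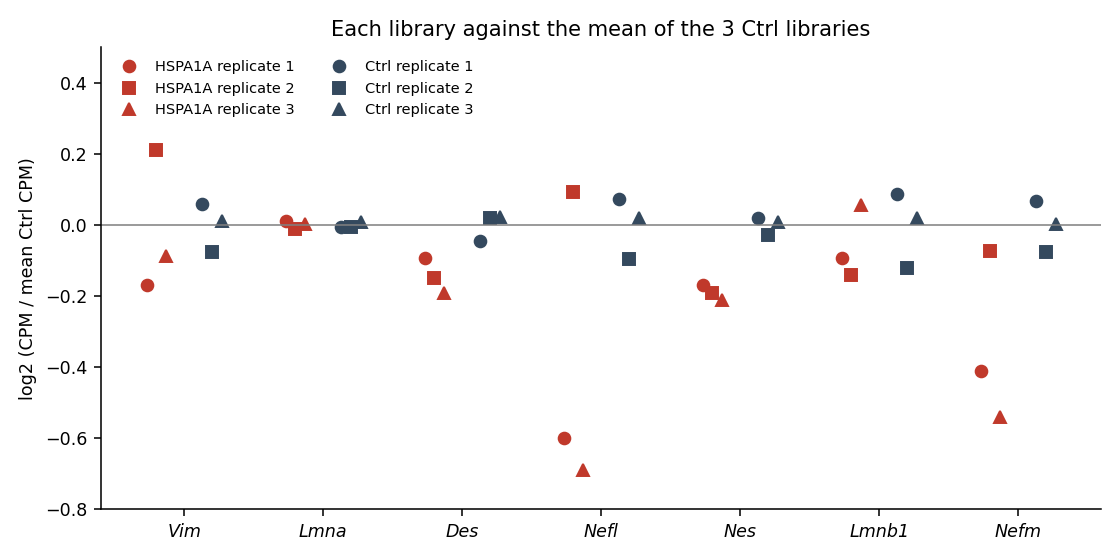
Log2 of the CPM in each library over the mean Ctrl CPM, for the 7 genes with enough reads. HSPA1A libraries (red) are drawn left of Ctrl libraries (dark), with 1 marker shape per replicate number. Nefl lies at -0.60 and -0.69 in HSPA1A replicates 1 and 3 and at 0.093 in replicate 2, while Nes lies between -0.21 and -0.17 in all 3.

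The neurofilament genes Nefl and Nefm varied most among the 7. Nefl (ENSMUSG00000022055.7, chromosome 14, 68083863 to 68089095, plus strand), the gene of the light chain on which neurofilaments are built, stood at 141, 227 and 132 CPM in HSPA1A replicates 1 to 3, against 224, 199 and 216 CPM in Ctrl replicates 1 to 3. Nefm (ENSMUSG00000022054.9, chromosome 14, 68082590 to 68124846, minus strand), the gene of the medium chain, stood at 40.3, 51.0 and 37.0 CPM in HSPA1A replicates 1 to 3, against 56.2, 50.9 and 53.8 CPM in Ctrl replicates 1 to 3. For both genes, HSPA1A replicates 1 and 3 were below every Ctrl library in CPM and replicate 2 was not. For Nefm the margin was narrow, 51.0 CPM in HSPA1A replicate 2 against 50.9 CPM in Ctrl replicate 2. In deposited FPKM, Nefm in HSPA1A replicate 2 was below every Ctrl library, at 8.28 against 8.40 to 9.09.

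The log2 fold changes were -0.35 ± 0.17 for Nefl (SE; 95% interval -0.72 to 0.01) and -0.33 ± 0.10 for Nefm (SE; 95% interval -0.55 to -0.10). Without HSPA1A replicate 2 they were -0.64 ± 0.055 and -0.47 ± 0.061 (SE). Without HSPA1A replicate 1 the Nefl value was -0.24, and without HSPA1A replicate 3 it was -0.21. In the fit without HSPA1A replicate 2, edgeR called Nefl, Nefm and Nes lower, 3 of the 7, beside 4.94% lower, 5.27% higher and 10.2% in either direction of all 12955 genes tested there; this too describes a contrast known when the genes were chosen. The Nefm to Nefl ratio of FPKM was 0.167, 0.131 and 0.164 in HSPA1A replicates 1 to 3 and 0.147, 0.150 and 0.146 in the Ctrl libraries, so it was above every Ctrl library in HSPA1A replicates 1 and 3 and below every one in replicate 2.

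The pattern in CPM of replicates 1 and 3 below every Ctrl library with replicate 2 not below held for Vim, Nefl and Nefm. It also held for 13.1% of all tested genes. Of the neural markers, Tubb3, which encodes a neuronal tubulin, stood at 37.4, 62.4 and 42.1 CPM in HSPA1A replicates 1 to 3, against 54.3, 47.3 and 52.8 CPM in Ctrl replicates 1 to 3. Map2, which encodes a microtubule-associated protein of neurons, stood at 26.3, 26.1 and 25.7 CPM in HSPA1A replicates 1 to 3, against 27.2, 26.5 and 26.4 CPM in Ctrl replicates 1 to 3. Tubb3 was highest in HSPA1A replicate 2 and lowest in HSPA1A replicates 1 and 3, while Map2 varied little. The noncoding transcript Yam1 took 2.70%, 1.58% and 2.53% of counts in the HSPA1A libraries and 1.86%, 1.18% and 1.23% in the Ctrl libraries. Their part in the neurofilament values was not tested. The exons of Nefl and Nefm share 1108 bases on opposite strands, and the strand setting of the counter is not stated, so reads in that stretch may have been split between them.

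**Figure D3:**
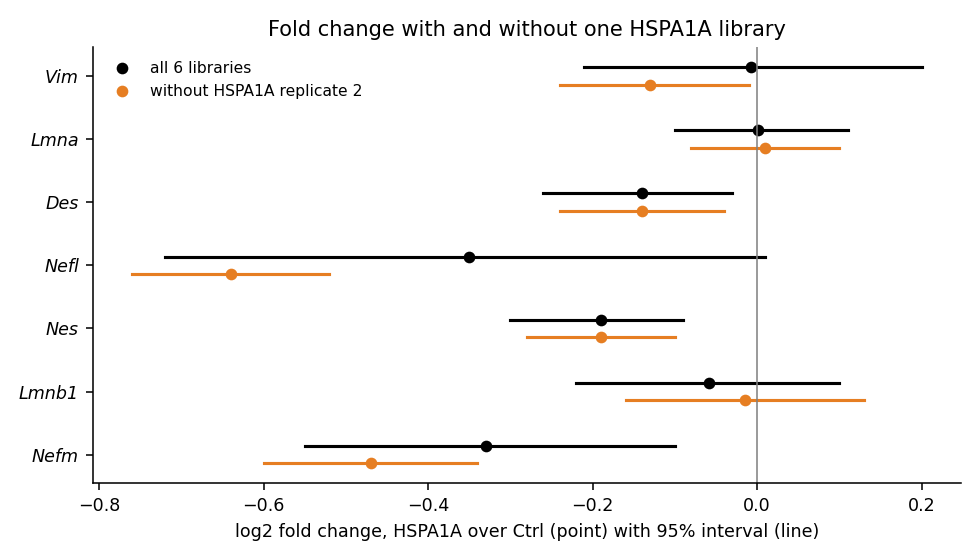
Log2 fold change of HSPA1A over Ctrl with its 95% interval for the 7 genes, with all 6 libraries (black) and without HSPA1A replicate 2 (orange). Nefl is at -0.35 and -0.64, Nefm at -0.33 and -0.47 and Vim at -0.0070 and -0.13, while Nes is at -0.19 and Des at -0.14 in both.

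Lamin A was the steadiest of the genes. Lmna (ENSMUSG00000028063.13, chromosome 3, 88480147 to 88509956, minus strand), which encodes lamins A and C, stood at 1094.8, 1078.8 and 1089.1 CPM in HSPA1A replicates 1 to 3, against 1083.3, 1082.4 and 1093.8 CPM in Ctrl replicates 1 to 3. In CPM the groups overlapped fully, and the log2 fold change was 0.0014 ± 0.048 (SE; 95% interval -0.10 to 0.11). In deposited FPKM they did not overlap, at 293.14, 302.56 and 290.47 in HSPA1A libraries, against 302.79, 308.68 and 309.88 in Ctrl libraries. Limma-trend on log2 FPKM plus 1 gave a log2 fold change of -0.056, beside a median of -0.041 over all genes. The coefficient of variation was 0.747% in HSPA1A and 0.583% in Ctrl libraries, where counting alone would give 0.608% and 0.595%. Its log2 range over the 6 libraries, 0.021, was smaller than that of all but 1 of the 9717 genes with a mean of at least 5 CPM. On library totals alone the log2 fold change was -0.035, the range was 0.065, and 87 genes (0.895%) had a smaller one.

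Lmnb1 (ENSMUSG00000024590.8, chromosome 18, 56707813 to 56753424, plus strand), the gene of lamin B1, which is known to decline in senescent cells, stood at 40.3, 39.0 and 44.7 CPM in HSPA1A replicates 1 to 3, against 45.7, 39.7 and 43.6 CPM in Ctrl replicates 1 to 3. The groups overlapped, with a log2 fold change of -0.058 ± 0.072 (SE; 95% interval -0.22 to 0.10). The Lmnb1 to Lmna ratio of FPKM was 0.0433, 0.0425 and 0.0482 in HSPA1A libraries and 0.0496, 0.0431 and 0.0469 in Ctrl libraries. The summed CPM of 7 cycling-cell markers, such as Mki67, Top2a and Pcna, was 839, 904 and 957 in HSPA1A libraries, against 915, 866 and 888 in Ctrl libraries. These markers did not vary alike. Mki67, Top2a, Ccnb1, Ccna2 and Cdk1 were lowest in HSPA1A replicate 1, Mcm2 in HSPA1A replicate 2 and Pcna in Ctrl replicate 1. Their part in the Lmnb1 values was not tested.

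Krt8 (ENSMUSG00000049382.9, chromosome 15, 101996698 to 102004482), Krt18 (ENSMUSG00000023043.6, chromosome 15, 102028180 to 102032027) and Synm (ENSMUSG00000030554.13, chromosome 7, 67730160 to 67759742) did not have enough reads to be fitted. Krt8 had 2, 0 and 1 reads in HSPA1A replicates 1 to 3, against 0, 3 and 6 reads in Ctrl replicates 1 to 3. Krt18, whose protein pairs with keratin 8 in simple epithelia, had 2, 0 and 0 reads in HSPA1A replicates, against 2, 1 and 0 reads in Ctrl replicates. Synm, which encodes synemin, had 1, 0 and 5 reads in HSPA1A replicates, against 1, 4 and 3 reads in Ctrl replicates. A count of 0 allows up to 0.112 to 0.121 CPM in these libraries (3 counts, counting error only). A difference between the groups at levels this low was not detectable at this depth. Exons of Synm overlap Ttc23 on the other strand, which had 443 to 518 reads per library.

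The near absence of the keratin 8 and 18 pair did not extend to all keratins, which were looked at after these values had been seen. Of 26 keratin genes with reads, 17 were type I and 9 type II, and 5 type I genes but only 1 type II gene averaged at least 1 FPKM. The type I gene Krt19 stood at 141.5, 240.3 and 188.1 FPKM in HSPA1A replicates 1 to 3, against 208.5, 179.9 and 191.7 FPKM in Ctrl replicates 1 to 3, a level close to that of Des. Krt13 followed at 26.0 FPKM on average, and Krt14, Krt10 and Krt23 at 2.11, 1.12 and 1.08 FPKM. The type II gene Krt80 averaged 23.6 FPKM. The summed FPKM of type I genes was 6.57, 14.1 and 11.0 times that of type II genes in HSPA1A replicates 1 to 3, against 9.45, 7.49 and 9.22 times in Ctrl replicates 1 to 3. Krt19 and Krt13 were highest in HSPA1A replicate 2 and lowest in HSPA1A replicate 1. Krt19 is also 1 of the 4 listed epithelial markers with reads, of which the others, Cdh1, Krt7 and Cldn4, averaged 0.00833, 0.0167 and 0.00333 FPKM.

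**Figure D4:**
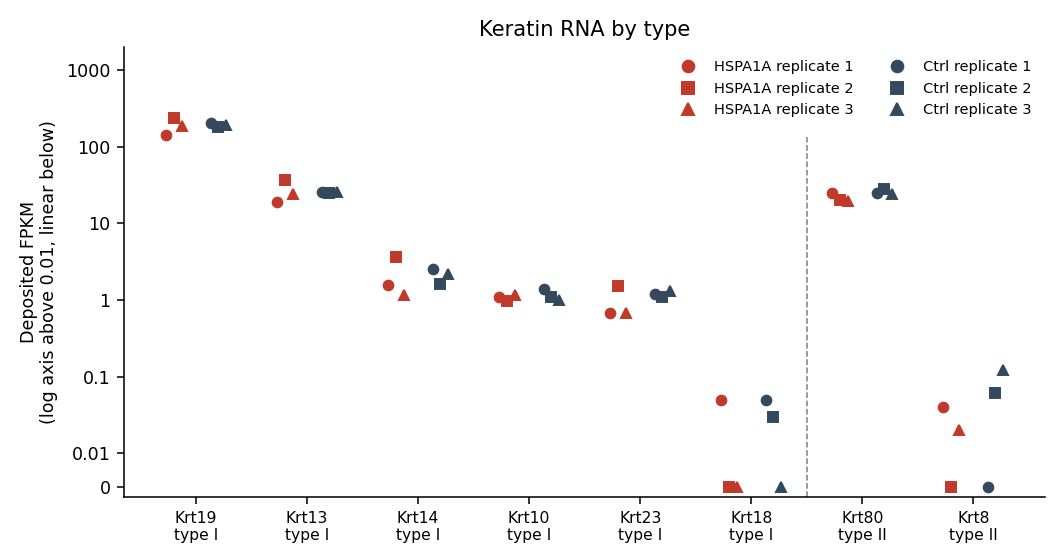
Deposited FPKM of Krt8, Krt18 and the keratin genes that averaged at least 1 FPKM, type I left and type II right of the dashed line, with HSPA1A libraries (red) left of Ctrl libraries (dark) on an axis that is linear below 0.01. Krt19 lies between 141.5 and 240.3 FPKM, and Krt80 is the one type II gene above 1 FPKM.

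Genes that work with these filaments were taken from 4 lists, 84 genes in all. No gene of any list was called by edgeR, DESeq2 or limma-voom, where 0.179%, 0.499% and 0.164% of all tested genes were called. By edgeR, 8.59% of all tested genes had an unadjusted p under 0.05. With shares this low, nothing about the lists is read from counts of 0 called. Among other intermediate filament genes, 0 of 11 tested were called, with 0 at an unadjusted p under 0.05 and a median log2 fold change of -0.072. Krt80 stood at 49.3, 38.0 and 38.8 CPM in HSPA1A replicates 1 to 3, against 48.2, 51.7 and 44.9 CPM in Ctrl replicates 1 to 3 (adjusted p = 0.608, edgeR). Krt19 averaged 328 ± 77 CPM in HSPA1A and 322.5 ± 27 CPM in Ctrl libraries (SD, n = 3 each; adjusted p = 0.966, edgeR). Prph, which encodes the neuronal filament protein peripherin, had the list's lowest log2 fold change, -0.90 ± 0.46 (SE; adjusted p = 0.617, edgeR). It had few reads, at 0.171, 0.480 and 0.166 CPM in HSPA1A replicates 1 to 3 against 0.638, 0.561 and 0.378 CPM in Ctrl replicates 1 to 3.

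Among linkers of filaments to membranes and other cytoskeletons, 0 of 13 tested genes were called, with 0 at an unadjusted p under 0.05 and a median of -0.017. Plec, which encodes the cytoskeletal linker plectin, had 518 ± 28 CPM in HSPA1A libraries, against 532 ± 31 CPM in Ctrl libraries (SD, n = 3 each; log2 fold change -0.038). Pkp2, which encodes the desmosomal protein plakophilin 2, had 23.1 ± 2.4 CPM in HSPA1A and 21.8 ± 0.13 CPM in Ctrl libraries. The lamin processing and nuclear envelope list had 0 of 21 called and 0 at an unadjusted p under 0.05. Its median was 0.0024, with values between -0.098 and 0.11. Sun2, which encodes an inner nuclear membrane protein that links lamins to the cytoskeleton, had 72.6 ± 1.9 CPM in HSPA1A and 77.7 ± 0.95 CPM in Ctrl libraries (adjusted p = 0.612, edgeR). Banf1, whose protein bridges chromatin and the nuclear envelope, averaged 217 ± 9.6 CPM with HSPA1A and 209 ± 11 CPM with the control plasmid.

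Among filament chaperones, kinases and degradation genes, 0 of 20 were called, 1 had an unadjusted p under 0.05, and the median was -0.047. That gene was Pak1, a kinase gene, at 38.0 ± 4.3 CPM in HSPA1A and 43.1 ± 1.6 CPM in Ctrl libraries (SD, n = 3 each; adjusted p = 0.579, edgeR). Capn2, which encodes the protease calpain 2, had 669.9 ± 20 CPM in HSPA1A libraries, against 620.5 ± 12 CPM in Ctrl libraries (adjusted p = 0.580, edgeR). Capn1, of calpain 1, had 56.9 ± 7.4 CPM in HSPA1A libraries, against 64.2 ± 0.70 CPM in Ctrl libraries. Without HSPA1A replicate 2, edgeR called 1 gene of the lists higher, Tor1aip2, and 6 lower, namely Pkp1, Aurkb, Capn1, Hspa8, Pak1 and Prkca. These were 0 of 11, 1 of 13, 1 of 21 and 5 of 20 tested genes in the 4 lists, in the order above. Of all genes, 5.27% were called higher, 4.94% lower and 10.2% in either direction in that fit. Hspa8, which encodes the constitutive HSP70 chaperone, stood at 433, 584 and 426 CPM in HSPA1A libraries, against 526, 518 and 504 CPM in Ctrl libraries. HSPA1A replicate 2 was thus above every Ctrl library. The log2 fold change of Hspa8 was -0.10 with all 6 libraries (adjusted p = 0.822, edgeR). It was -0.26 with HSPA1A replicate 2 left out (adjusted p = 0.00186, edgeR).

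**Figure D5:**
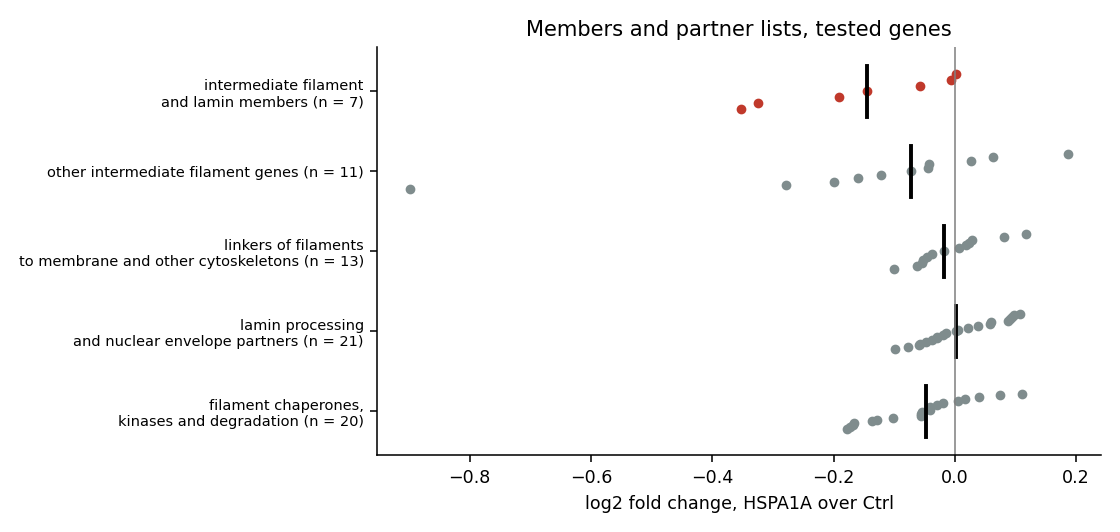
Log2 fold change of HSPA1A over Ctrl for the tested genes among the filament and lamin genes (red) and the 4 partner lists (grey), with the median of each as a black bar. The medians are -0.14 in the filament and lamin genes and -0.072, -0.017, 0.0024 and -0.047 in the lists from top to bottom. The point at -0.90 is Prph, which had few reads (0.166 to 0.638 CPM).

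The genes whose profile over the 6 libraries lay closest to a member were sought among 9710 others with a mean of at least 5 CPM, by the largest gap in centred log2 CPM in any library. For Nefl, which had the widest range of the 7 (0.78 on the log2 scale), these included Il33, a cytokine gene, with a largest gap of 0.067, and Klhl30, at 0.11. Il33 stood at 196, 335 and 200.1 CPM in HSPA1A replicates 1 to 3, against 333, 292 and 304 CPM in Ctrl replicates 1 to 3. Nefm differed from Nefl by up to 0.19, and 43 genes lay closer to Nefl than that. For Vim, with a range of 0.38, the nearest were Msmo1, of cholesterol synthesis, at a gap of 0.029, Hk1, which encodes hexokinase 1, at 0.048, and Rgs20, a regulator of G protein signalling, at 0.049. Des and Nes differed from Vim by up to 0.30 and 0.31.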

How the data were processed

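Polyadenylated RNA of 6 HL-1 samples was sequenced as stranded paired-end libraries, per the labels' protocols. The authors deposited whole read counts per gene and FPKM rounded to 2 decimals, 1 column per sample. Per the submitters' processing notes, bcl2fastq, TopHat2 and edgeR were used with the GRCm38 build. The counter, its strand setting and its annotation were not given in the sources available. Dividing counts by FPKM and library totals gave the gene length behind the FPKM, such as 2365 bases for Vim, where the exons of GENCODE M21 cover 4743 bases, so FPKM ratios between genes depend on the gene model.

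Counts were fitted with edgeR 4.0.16 under R 4.3.3 after filterByExpr (minimum count 10, minimum total 15), with TMM scaling, the quasi-likelihood test, Benjamini-Hochberg adjustment and a threshold of 0.05 over 12827 genes, without covariates. SEs and 95% intervals come from that fit, and percent called is the share of all tested genes past the threshold. Alternatives used DESeq2 1.42.0, limma 3.58.1, other scalings and filters, the replicate number as a block and each library left out. The fit was tested on simulated counts, in which no library was set apart as HSPA1A replicate 2 was here. No library was a copy of another: pairs of libraries differed with a chi-square over its degrees of freedom of 2.78 to 28.1.

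The genes, the partner lists and the rule for named genes were chosen with earlier results of these data known. The rule named all 10 genes, Hspa1a and Hspa1b, and of each partner list the called genes, up to 3 with the smallest p and 2 with the highest CPM, and the 3 nearest profiles of Nefl and Vim. Other keratins and single markers were named after their values were seen. Figures were drawn with matplotlib 3.10.9. Some genes that the rule or the marker lists name are not reported here.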

Additional observations from a re-analysis of the deposited data

How the results depend on the processing

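With edgeR on all 6 libraries 23 genes were called. DESeq2 called 64, a fit with no filter on low counts 205, and limma-trend on log2 FPKM plus 1 or plus 0.1 called 15 each. Leaving out single libraries gave 10 to 1323, with the highest without HSPA1A replicate 2. Of the filament and lamin genes, 0 were called in the main edgeR fit and 2 (Nefl and Nefm) with no filter on low counts. When single libraries were left out 0 to 3 were called, the 3 without HSPA1A replicate 2. Of all genes, 0.179% were called in the main fit, 0.895% with no filter and 10.2% without HSPA1A replicate 2. Of the partner lists, 0 to 7 were called when single libraries were left out, the 7 without HSPA1A replicate 2. The cause of these differences was not tested. The median log2 fold change of the 7 genes stayed between -0.20 and -0.12 in all 15 alternatives. Des, Nes, Nefl, Nefm and Lmnb1 kept a negative value in all 15, while Vim was positive in 3 and Lmna in 8. With the replicate number as a block 16 genes were called, none of them a filament or lamin gene. Same-numbered libraries correlated at -0.139, -0.0328 and 0.0972 in their deviations, and not every HSPA1A library correlated best with its own number. With so few libraries these values cannot show whether same-numbered libraries shared more than the number. At 5 to 14 reads over all libraries, Krt8, Krt18 and Synm were below what the depth can compare.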
